A study of Anser cygnoides with 9 samples.

Results

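Genes of protein folding and stress in the endoplasmic reticulum (ER) were described in granulosa cells grown from goose ovaries (Anser cygnoides), in 9 libraries. They are the rows named MANF, PDIA6, FKBP11, DAD1, SRP72 and HSPB8 of the deposited expression table, 6 of its 1371 genes, and HSPB8, a heat shock protein of the cytosol, was included for contrast. The cells came from Sichuan white geese of 40 weeks, from ovaries taken 2 hours before laying. The labels name small and large yellow follicles as the tissue, and the design text names preovulatory follicles and pre-hierarchical follicles of 4 to 12 mm. Cells of the agonist group received alarelin acetate, a peptide analogue that activates the receptor of gonadotropin-releasing hormone (GnRH), cells of the antagonist group received cetrorelix acetate, which is also a peptide and blocks this receptor, and the blank group was the untreated control. Each group held 3 libraries. The sources used here give neither dose nor exposure time for alarelin or cetrorelix, and the 2 may have differed. The labels do not say if replicate libraries stem from different birds or cultures. All p-values therefore cover only the spread between libraries, which may be technical.

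Proteins bound for secretion or for membranes enter the ER while they are being made. The signal recognition particle, of which SRP72 is a subunit, halts the new chain and brings the ribosome to the ER membrane. The oligosaccharyltransferase, of which DAD1 is a small subunit, attaches sugar trees to asparagines of the entering chain, and enzymes such as the disulfide isomerase PDIA6 and the prolyl isomerase FKBP11 help the chain to fold. When unfolded chains accumulate, the unfolded protein response raises transcripts of folding factors, and in mammals MANF, a small protein that is held in the ER and can be secreted, is among its targets. HSPB8 is a small heat shock protein that holds misfolded proteins outside the ER and, in mammals, works with BAG3 to pass them to autophagy.

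The values are TPM, a share of transcripts corrected for length, and a change is always relative to the other transcripts of a library. Levels of different genes can be compared only as far as the annotation and the use of strand allow, and neither is given. The listed TPM summed to 28759.5 to 32645 per library, or 2.88% to 3.26% of a full set, and read numbers are unknown. All blank libraries (31764.3 to 32645) summed higher than all agonist libraries (28759.5 to 31031.9) and all antagonist libraries (29460.2 to 30988.3). The cause of this gap was not tested. The sources used here do not say why these genes were listed. Of the 1371 genes, 832 had at least 1 TPM in 3 or more libraries, and these were tested with limma on log2(TPM + 1), a scale that understates the change of low genes. All 6 members passed this filter, and genes with a Benjamini-Hochberg adjusted p under 0.05 over the 832 were called. Below, shares of all genes and ranks by fold change refer to these 832 genes and not to all transcripts of the cells. The antagonist libraries scored 4.14 to 6.90 on the first principal component of all tested genes, the agonist libraries -5.98 to -2.62, and the blank libraries 2.57, -3.10 and -3.66, so blank replicate 1 lay apart from the other blank libraries. Of 24 granulosa cell markers, only FST and GJC1 were in the table, so the labelled cell type could be checked on these alone. FST and GJC1 summed to 47.7 to 55.8 TPM in agonist libraries, 58.3 to 61.4 TPM in antagonist libraries and 55.4 to 61.4 TPM in blank libraries. FST was itself called lower with the agonist than with the antagonist (log2 fold change -0.27, limma, adjusted p = 0.0467), as were 23.9% of all genes. GJC1 was at -0.0042 there and was not called. The 3 leukocyte markers in the table (CD4, C1QA and C1QB, of 16) summed to 1.69 to 3.51 TPM in agonist libraries, 0.425 to 2.57 TPM in antagonist libraries and 0.405 to 0.752 TPM in blank libraries. The single theca or stroma marker (HSD17B1), endothelial marker (CDH5) and oocyte marker (ZP1) in the table reached at most 1.09, 0.121 and 0.452 TPM, and 0 of 11 erythroid and 0 of 13 epithelial markers were in it. The part of other cells in the results below was not tested. In bulk RNA, fewer cells of a type and less RNA per cell cannot be told apart.

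DAD1 was the most abundant of the 6 genes, at a mean of 287 TPM over the 9 libraries, and ranked 22nd in the table. FKBP11 followed at 49.8 TPM, PDIA6 at 35.9, SRP72 at 23.6, MANF at 9.36 and HSPB8 at 3.90 TPM. The genes varied little across the experiment: the highest library exceeded the lowest by 1.35-fold for SRP72, 1.39-fold for PDIA6, 1.43-fold for FKBP11, 1.47-fold for DAD1 and 1.86-fold for MANF. HSPB8, the lowest, had the widest span at 2.38-fold.

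**Figure D1:**
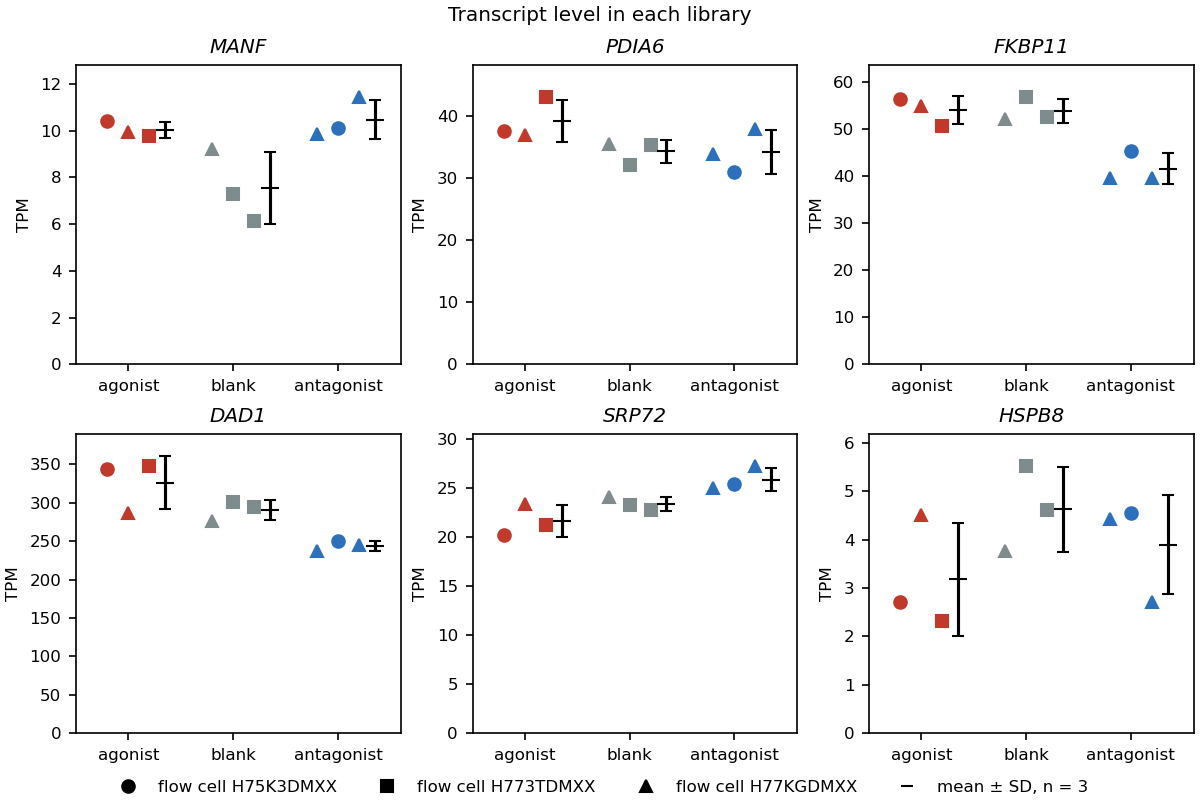
TPM of the 6 genes in each library, by group, with replicates 1 to 3 from left to right. Symbols mark the flow cell, and black bars the mean ± SD of 3 libraries. All antagonist libraries lie below all agonist and all blank libraries for FKBP11 and DAD1, and MANF is lowest in the blank group, where blank replicate 1 lies closest to the treated libraries.

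Cells given the agonist were first set against cells given the antagonist. Transcripts of DAD1 and FKBP11 were higher with the agonist than with the antagonist, SRP72 was lower, and PDIA6, MANF and HSPB8 did not pass. Among the 832 genes, 213 were called (25.6%), 14 of them higher with the agonist (1.68%) and 199 lower (23.9%). Of the 6 members, 2 were called higher and 1 lower, and the same 3 were those with an unadjusted p under 0.05, as were 43.1% of all genes. They were also the members whose groups of libraries did not overlap, which was the case for 48.0% of all genes, 3.12% with the agonist above and 44.8% with it below. The median log2 fold change, agonist relative to antagonist, was 0.07 over the 6 members and -0.21 over all genes. Most genes therefore lay below 0 in this comparison, and a member at 0 lay above the middle of the table.

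DAD1, the oligosaccharyltransferase subunit, was at 344, 286 and 347 TPM in agonist replicates 1 to 3. In the antagonist libraries it was at 237, 250.2 and 245 TPM, and in the blank libraries at 276, 300.1 and 294 TPM. Every antagonist library was thus below every other library, and agonist replicate 2 fell among the blank libraries. The group means were 326 ± 34 TPM (agonist), 290.1 ± 13 TPM (blank) and 244 ± 6.7 TPM (antagonist) (SD, n = 3 each). The log2 fold change of agonist against antagonist was 0.41 ± 0.09 (SE; limma, adjusted p = 0.0156), the fifth highest of all genes and 0.62 above their median. Between antagonist and blank it was -0.25 ± 0.09, which did not pass (limma, adjusted p = 0.103), although the libraries did not overlap. The difference of agonist and blank, 0.16 with a 95% interval of -0.04 to 0.36, did not pass (limma, adjusted p = 0.512). In the order agonist, blank, antagonist, neighbouring levels of DAD1 did not pass, while the outer levels did. Antagonist against blank passed for DAD1 in 1 of 13 other analyses, the one with library weights (-0.29, limma, adjusted p = 0.00726). With these weights 348 of 832 genes passed, against 92 as reported. Of 9 fits without a library, DAD1 passed in 1, without agonist replicate 2 (-0.25, limma, adjusted p = 0.0457), a library outside this comparison.

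FKBP11, the prolyl isomerase, was at 56.5, 54.9 and 50.7 TPM in agonist replicates 1 to 3. The blank libraries were at 52.1, 56.8 and 52.6 TPM and the antagonist libraries at 39.6, 45.4 and 39.7 TPM. Agonist and blank libraries covered the same range, and all 3 antagonist libraries lay below it. The means were 54.0 ± 2.95, 53.8 ± 2.6 and 41.6 ± 3.3 TPM with the agonist, in blank cells and with the antagonist (SD, n = 3 each). FKBP11 exceeded its antagonist level in agonist-treated cells, at a log2 fold change of 0.37 ± 0.09 (SE; by limma, with adjusted p = 0.0177), the eighth highest of all genes. It was lower with the antagonist than in blank cells by almost the same amount, -0.37 ± 0.09 (limma, adjusted p = 0.0380). Agonist and blank differed by 0.0046, with a 95% interval of -0.19 to 0.20 (limma, adjusted p = 0.984). The moderated F-test over the 3 groups gave adjusted p = 0.0273 for FKBP11 and 0.0347 for DAD1 in limma, and of the 6 members only these passed it, where 15.6% of all genes did.

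The calls of DAD1 and FKBP11 between the analogues were kept in all 13 other analyses that left out no single library, 1 of which used the 2 groups alone, among them a model with a flow cell term, which put DAD1 at 0.36 and FKBP11 at 0.37 (limma, both with adjusted p = 0.0317). Within flow cell H75K3DMXX, which held agonist replicate 1 and antagonist replicate 2, the log2 differences were 0.46 for DAD1 and 0.31 for FKBP11, and within H77KGDMXX, with agonist replicate 2 and antagonist replicates 1 and 3, they were 0.25 and 0.46. Both calls were lost without agonist replicate 1, antagonist replicate 1 or antagonist replicate 3, where DAD1 was at 0.37, 0.39 and 0.41 (limma, adjusted p = 0.0703, 0.0525 and 0.0616) and FKBP11 at 0.34 in each case (limma, adjusted p = 0.0765, 0.0633 and 0.0750). After upper quartile, median of ratios and quantile scaling, which move the all-gene median from -0.21 to -0.04, 0.0049 and 0.02, DAD1 was at 0.62, 0.68 and 0.45 and FKBP11 at 0.58, 0.64 and 0.44, and both passed each time. These scalings moved the median upward, the direction of both differences, so the kept calls are a weak check. Over all genes, 14 higher and 199 lower calls turned into 35 higher and 66 lower with the first scaling, 52 higher and 56 lower with the second and 25 higher and 27 lower with the last.

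SRP72, the signal recognition particle subunit, ran the other way. It was at 20.2, 23.4 and 21.2 TPM in agonist libraries, at 24.1, 23.2 and 22.7 TPM in blank libraries and at 24.9, 25.4 and 27.2 TPM with the antagonist, replicates 1 to 3 in each case. Every antagonist library exceeded every other library, while agonist replicate 2 lay among the blank libraries. The log2 fold change of agonist against antagonist was -0.25 ± 0.08 (SE; limma, adjusted p = 0.0490), only 0.04 below the median of all genes. SRP72 thus stood near the middle of the tested genes, with 473 of 832 genes ranked at or above it counted from the highest. Relative to the median of the genes tested, it was at -0.10 with a mean of at least 5 TPM and at -0.12 without a filter. Its value was -0.05, 0.014 and -0.10 after upper quartile, median of ratios and quantile scaling, so that its direction turned under median of ratios scaling, and it passed under none of them. In all, SRP72 passed in 4 of 13 other analyses. It also missed the threshold with a pseudocount of 0.1, a mean of 5 TPM, the 2 groups alone or no variance trend (adjusted p = 0.0506 to 0.0817 in limma), with a flow cell term (-0.23, limma, adjusted p = 0.0811), with the replicate number as a block (adjusted p = 0.0709), or without any single library other than agonist replicate 2 or blank replicate 1 (adjusted p = 0.0701 to 0.169). Antagonist against blank was at 0.14 ± 0.08 and agonist against blank at -0.11 ± 0.08, and neither passed (limma, adjusted p = 0.282 and 0.677).

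PDIA6, the disulfide isomerase, was at 37.6, 36.8 and 43.0 TPM in agonist libraries, 35.4, 32.1 and 35.3 TPM in blank libraries and 33.9, 30.9 and 37.9 TPM with the antagonist. Agonist replicate 3 was the highest library, every agonist library exceeded every blank library, and the antagonist libraries overlapped both groups. The log2 fold change was 0.19 ± 0.10 against the antagonist and 0.18 ± 0.10 against blank (SE), and neither passed (limma, adjusted p = 0.165 and 0.492). Antagonist and blank differed by -0.0051, with a 95% interval of -0.23 to 0.22 (limma, adjusted p = 0.978). Relative to the median of all genes, agonist against antagonist was 0.40 higher for PDIA6, which passed after upper quartile scaling (0.40, limma, adjusted p = 0.0430) and after median of ratios scaling (0.46, limma, adjusted p = 0.0296) and not after quantile normalization (0.30, limma, adjusted p = 0.0902). In RefSeq's annotation of a Taihu goose assembly, PDIA6 overlaps ATP6V1C2, a proton pump subunit. The sources used here do not say whether strand was used in counting, so reads of this pair may not be told apart.

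**Figure D2:**
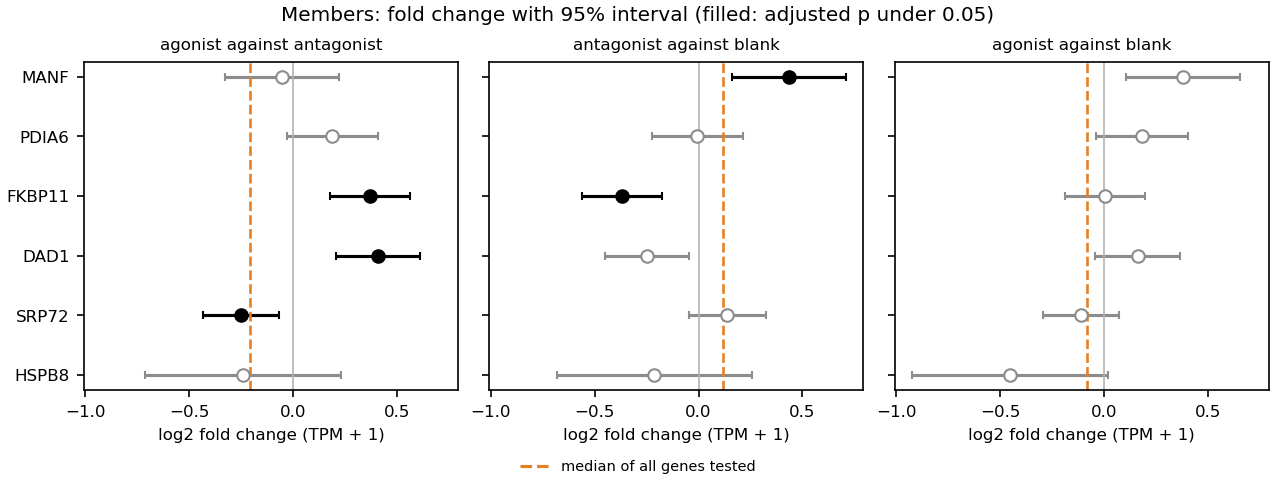
Log2 fold changes of TPM + 1 with 95% intervals for the 6 genes in the 3 comparisons. Filled points have an adjusted p under 0.05 in limma, and the dashed line is the median of all 832 genes. DAD1 and FKBP11 lie to the right of both 0 and the median between agonist and antagonist, SRP72 lies on the median, and the interval of HSPB8 is the widest.

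Cells given the antagonist were next set against untreated cells. MANF was higher with the antagonist and FKBP11 was lower. Of 832 genes 92 were called (11.1%), 85 higher (10.2%) and 7 lower (0.841%). Of the 6 members, 1 was called higher and 1 lower, and 3 had an unadjusted p under 0.05 (30.3% of all genes), DAD1 being the other. FKBP11 was 1 of the 7 genes called lower. Libraries of the antagonist and blank groups did not overlap for 4 members, higher for MANF and SRP72 and lower for FKBP11 and DAD1, and for 33.9% of all genes, 26.2% higher and 7.69% lower. The members' median log2 fold change was -0.11 and that of all genes 0.12. The call of FKBP11 did not survive a flow cell term (-0.41, limma, adjusted p = 0.106), where 0 of 832 genes passed and 199 had an unadjusted p under 0.05. It was also lost with quantile normalization (-0.36, limma, adjusted p = 0.0581), without a filter on low values (adjusted p = 0.0572), and on leaving out any single antagonist library, blank replicate 2 or blank replicate 3 (-0.43 to -0.33, limma, adjusted p = 0.0513 to 0.153). Within H77KGDMXX, the flow cell with antagonist replicates 1 and 3 and blank replicate 1, the log2 difference of FKBP11 was -0.38. Over all genes, 85 higher and 7 lower calls turned into 62 higher and 14 lower with upper quartile scaling, 42 higher and 24 lower with median of ratios scaling and 30 higher and 11 lower with quantile normalization.

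MANF, the secreted ER factor, was at 9.21, 7.31 and 6.16 TPM in blank replicates 1 to 3. It was at 9.86, 10.1 and 11.4 TPM in the antagonist libraries and at 10.4, 9.93 and 9.77 TPM in the agonist libraries. All 6 treated libraries exceeded all 3 blank libraries, and the blank group had the widest spread, 7.56 ± 1.5 TPM against 10.5 ± 0.84 and 10.03 ± 0.33 TPM with the antagonist and the agonist (SD, n = 3 each). The log2 fold change was 0.44 ± 0.12 for antagonist against blank (SE; limma, adjusted p = 0.0491) and 0.38 ± 0.12 for agonist against blank (limma, adjusted p = 0.279). The 2 differences share the blank libraries. Between the analogues MANF was at -0.05, with a 95% interval of -0.33 to 0.22 (limma, adjusted p = 0.735), and after upper quartile, median of ratios and quantile scaling at 0.14, 0.20 and 0.15.

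The call of MANF rested on a narrow margin. It passed in 1 of 13 other analyses, the one with library weights, and in 1 of 9 fits without a library. Without blank replicate 1 the log2 fold change of antagonist against blank was 0.57 (limma, adjusted p = 0.00511). Blank replicate 1 was read on flow cell H77KGDMXX together with antagonist replicates 1 and 3 and agonist replicate 2, and the other blank libraries on H773TDMXX together with agonist replicate 3. Within H77KGDMXX the difference of antagonist and blank was 0.19, and a model with a flow cell term gave 0.29 (limma, adjusted p = 0.234). For agonist against blank the difference was 0.098 within H77KGDMXX and 0.48 within H773TDMXX.

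Agonist-treated cells were last set against untreated cells. None of the 6 members passed, and neither did any other gene: limma called 0 of 832 (0%). An unadjusted p under 0.05 was found for 102 genes (12.3%), with MANF as the only member among them. Of the members, MANF and PDIA6 had groups that did not overlap, each with the agonist above blank, where 11.9% of all genes did not overlap, 1.32% with the agonist above and 10.6% with it below. By fold change, MANF was the seventh highest of all genes and PDIA6 ranked 24th, and the median was 0.08 over the members and -0.08 over all genes. The summed leukocyte markers given above did not overlap between these groups either, and their part was not tested. A difference of less than about 0.26 on the log2 scale, the median reach of a gene's 95% interval to either side, was within the error of a typical gene.

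HSPB8, the small heat shock protein, had its lowest values in agonist libraries, at 2.71, 4.50 and 2.31 TPM in replicates 1 to 3. It was at 3.76, 5.52 and 4.61 TPM in blank cells and at 4.42, 4.55 and 2.72 TPM with the antagonist. The 3 groups overlapped, and agonist replicate 2 and antagonist replicate 3 lay apart from the other libraries of their groups. The means were 3.18 ± 1.2, 4.63 ± 0.88 and 3.90 ± 1.0 TPM (SD, n = 3 each) in the same order. The log2 fold change was -0.45 ± 0.21 for agonist against blank (SE; limma, adjusted p = 0.415), with a 95% interval of -0.92 to 0.02. It was -0.24 ± 0.21 for agonist against antagonist and -0.21 ± 0.21 for antagonist against blank (limma, adjusted p = 0.381 and 0.540). Within H773TDMXX agonist and blank differed by -0.87, and within H77KGDMXX by 0.21, so the direction was not the same on both flow cells.

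**Figure D3:**
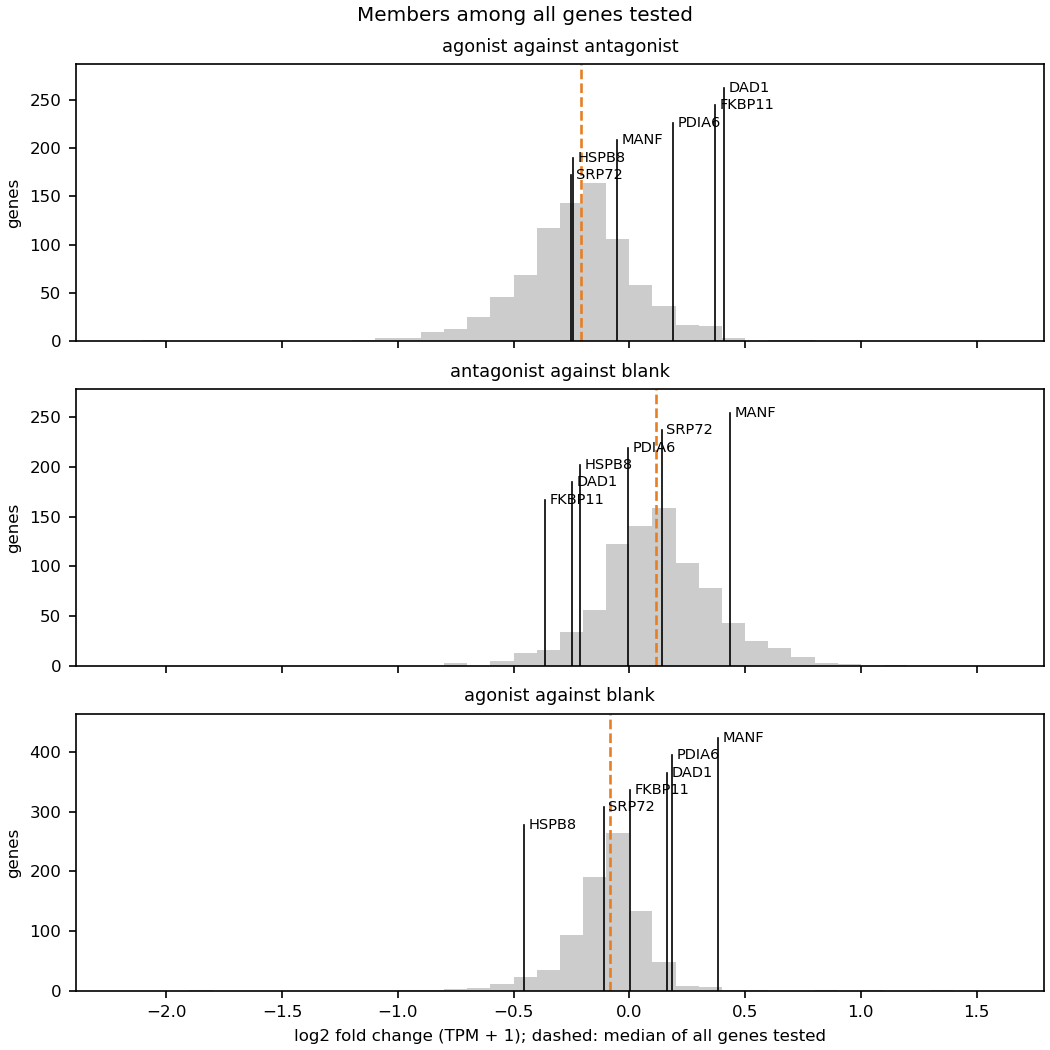
Histograms of the log2 fold change of TPM + 1 over the 832 tested genes in each comparison, in steps of 0.1, with the 6 genes marked by vertical lines and the median of all genes by a dashed line. DAD1 and FKBP11 lie in the upper tail between agonist and antagonist, MANF lies above the median in both comparisons with blank, and SRP72 lies near the median in all 3.

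The table held few other genes of the secretory route. Of the lists of ER folding, the unfolded protein response, the oligosaccharyltransferase, N-glycan precursor synthesis, signal recognition and translocation, ER-associated degradation, small heat shock proteins and ER to Golgi transport, 30 genes besides the members were in the table and 25 were tested. DHDDS passed the filter only through its antagonist libraries and was left out of the counts. Of the other 24, 0 were higher and 3 lower with the agonist than with the antagonist (limma; 1.68% and 23.9% of all genes), 1 was higher and 0 lower with the antagonist than in blank cells (10.2% and 0.841% of all genes), and 0 passed for agonist against blank (0% of all genes; 102 of them had an unadjusted p under 0.05). Their median log2 fold changes were -0.16, 0.07 and -0.13 in these comparisons. The shares of all genes keep DHDDS and any other gene that passed the filter through a single group, so they are not a like baseline. None of the 46 cytosolic chaperone and heat shock response genes listed was in the table, so HSPB8 could not be set beside its usual partners.

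From the list of ER folding genes, 6 of 56 were in the table, 3 of them members. TXNDC5, a disulfide isomerase like PDIA6, was at 16.3 ± 0.61 TPM with the agonist, 15.0 ± 0.75 TPM with the antagonist and 17.0 ± 1.2 TPM in blank cells (SD, n = 3 each). QSOX1, a sulfhydryl oxidase that makes disulfide bonds, was at 21.8 ± 4.8, 25.2 ± 2.0 and 29.2 ± 2.2 TPM, and its log2 fold change for agonist against blank was -0.42 (limma, adjusted p = 0.282). GPX8, a peroxidase of the ER, was at -0.15 for agonist against antagonist. None of these 3 passed in any comparison. All antagonist libraries of TXNDC5 lay below all agonist and all blank libraries, at 0.12 for agonist against antagonist and -0.17 for antagonist against blank. Of all genes, 3.12% and 7.69% did not overlap in these directions. QSOX1 and GPX8 overlapped in both comparisons. For agonist against blank, all agonist libraries of QSOX1 lay below all blank libraries, as for 10.6% of all genes, while TXNDC5 and GPX8 overlapped. Of the list's 6 tested genes, members included, 1 was called higher and 0 lower between the analogues (1.68% and 23.9% of all genes). For antagonist against blank, 1 was called higher and 1 lower (10.2% and 0.841% of all genes). The list's median log2 fold changes were 0.03, -0.09 and -0.03 in the 3 comparisons, against -0.21, 0.12 and -0.08 over all genes.

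From the unfolded protein response, ATF3 and CREB3L2 were 2 of 27 genes in the table. ATF3, a stress-induced transcription factor, was at 0.830 ± 0.40, 0.994 ± 0.68 and 0.992 ± 0.52 TPM with the agonist, with the antagonist and in blank cells (SD, n = 3 each). CREB3L2, a transcription factor that is released from the ER membrane by cleavage, was at 11.6 ± 1.2, 12.9 ± 0.90 and 13.8 ± 0.81 TPM. Neither passed in any comparison. All agonist libraries of CREB3L2 lay below all blank libraries, as for 10.6% of all genes, while ATF3 overlapped. Other genes often read for this response, among them the chaperone HSPA5 and the transcription factors XBP1 and DDIT3, were not analysed here.

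In the oligosaccharyltransferase, DAD1 and MAGT1 were called in opposite directions between the analogues. MAGT1, an oxidoreductase subunit, was lower with the agonist than with the antagonist, at 1.68 ± 0.29 against 3.20 ± 0.36 TPM (SD, n = 3 each), a log2 fold change of -0.65 ± 0.15 (SE; by limma, adjusted p = 0.0171), and higher with the antagonist than in blank cells, at 1.95 ± 0.61 TPM there (0.52 ± 0.15, limma, adjusted p = 0.0490). The first call was lost with quantile normalization (-0.34, limma, adjusted p = 0.0704) and without agonist replicate 1, antagonist replicate 1 or antagonist replicate 3, and the second passed in 2 of 12 other analyses and 1 of 9 fits without a library. RPN1, another subunit, was at 106 ± 17, 121 ± 6.9 and 128 ± 4.5 TPM with the agonist, with the antagonist and in blank cells. RPN2 was at 1.63 ± 0.13, 1.72 ± 0.21 and 1.45 ± 0.11 TPM in the same order. The log2 fold changes of RPN1 and RPN2 for agonist against antagonist, -0.19 and -0.05, did not pass. So of the 4 subunits tested between the analogues, DAD1 was higher, MAGT1 lower and 2 did not pass. Of all genes, 1.68% were called higher and 23.9% lower in this comparison, with a median of -0.21.

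Of 29 genes that build the sugar tree which the oligosaccharyltransferase transfers, 4 were tested, and DPAGT1 and DOLK were lower with the agonist than with the antagonist. DPAGT1, which adds the first sugar to the lipid carrier, was at 27.2 ± 2.8 against 34.3 ± 2.5 TPM (log2 fold change -0.33, limma, adjusted p = 0.0475). DOLK, the kinase that makes the phosphorylated carrier, was at 15.2 ± 3.5 against 21.1 ± 2.8 TPM (-0.46, limma, adjusted p = 0.0474), with libraries that overlapped. The mannosyltransferase ALG2 was at -0.30 and did not pass. Both calls passed by a small margin in a comparison in which 23.9% of all genes were called lower and the median was -0.21. DPAGT1 passed in 3 of 13 and DOLK in 4 of 13 other analyses, and neither passed with a flow cell term or under any of the 3 scalings. DHDDS, which makes the long lipid chain of the carrier, was at 0.816 ± 0.16, 1.36 ± 0.29 and 0.716 ± 0.19 TPM with the agonist, with the antagonist and in blank cells (SD, n = 3 each). Since only its antagonist libraries reached the 1 TPM of the filter, it was tested only because it was high there. Its tests are not given in the text, and its points in the figure of the lists are not read as results.

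Beside SRP72, the tested genes of targeting and translocation were SRP9, SPCS3 and EMC3. SRP9, which binds the RNA of the signal recognition particle, was at 9.67 ± 0.76, 10.5 ± 1.0 and 9.06 ± 0.60 TPM with the agonist, with the antagonist and in blank cells (SD, n = 3 each). EMC3, a subunit of the complex that inserts membrane proteins, was at 54.0 ± 1.3, 52.4 ± 2.9 and 52.2 ± 2.8 TPM. Neither passed in any comparison, and neither did SPCS3, a subunit of signal peptidase. None of the 5 tested genes of ER-associated degradation and none of the 5 of ER to Golgi transport passed in any comparison in limma. The most abundant of the former were the ubiquitin-conjugating enzymes UBE2J2, at 38.1 ± 4.5, 39.7 ± 1.5 and 35.5 ± 6.0 TPM with the agonist, with the antagonist and in blank cells, and UBE2G1, at 9.37 ± 0.58, 10.3 ± 1.4 and 9.20 ± 1.1 TPM. The most abundant of the latter were the vesicle tethering subunit TRAPPC4, at 209 ± 28, 234 ± 13 and 264 ± 3.9 TPM, and the retrieval receptor KDELR3, at 58.6 ± 7.1, 68.0 ± 4.1 and 66.2 ± 3.0 TPM. The median log2 fold change of agonist against antagonist was -0.17 in each of these lists, close to the -0.21 of all genes. All agonist and all antagonist libraries of TRAPPC4 lay below all blank libraries, as for 10.6% and 7.69% of all genes. KDELR3 overlapped in both comparisons with blank.

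**Figure D4:**
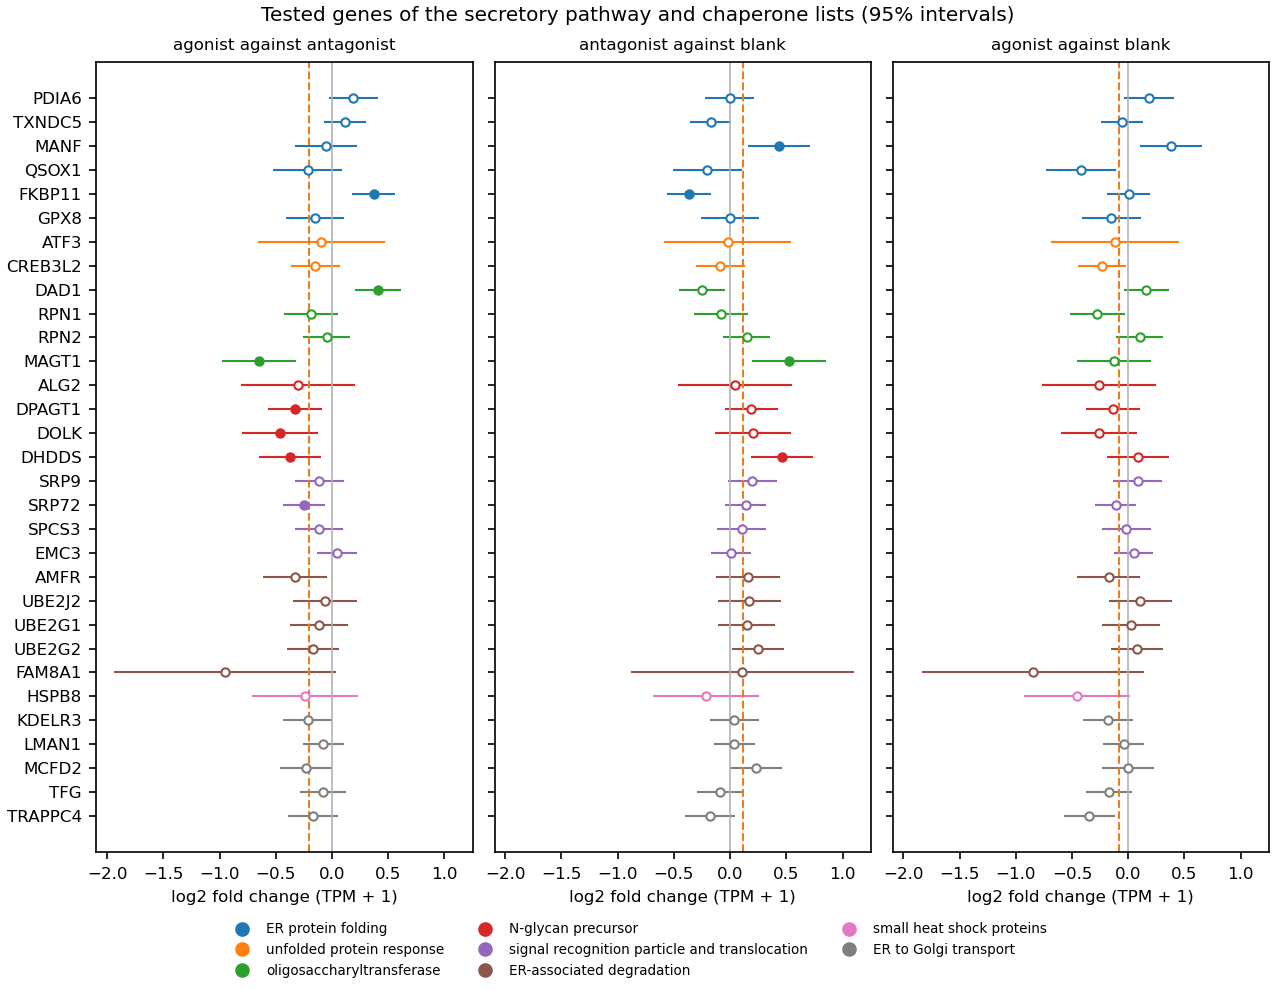
Log2 fold changes of TPM + 1 with 95% intervals for the members and the other tested genes of the lists, coloured by list. Filled points have an adjusted p under 0.05 in limma, and dashed lines are the medians of all 832 genes. Between agonist and antagonist FKBP11 and DAD1 are the only filled points above 0, while MAGT1, DPAGT1, DOLK and SRP72 are filled below 0. DHDDS is drawn too, but it passed the filter only through its antagonist libraries, so its points are not read as results.

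The 6 members did not form a common pattern over the 9 libraries. Pearson's r of log2(TPM + 1) was computed for all 15 pairs as a description. DAD1 and SRP72 ran opposite, with r = -0.94 and a Spearman coefficient of -0.92 (n = 9), r = -0.73 for the deviations from the group means, and r = -0.98 without the 2 libraries farthest from the median of DAD1. PDIA6 and HSPB8 also ran opposite, with r = -0.84 and a Spearman coefficient of -0.83, r = -0.83 within groups and r = -0.83 without the 2 libraries farthest from the median of PDIA6. Agonist replicate 3, for example, had the highest PDIA6 and the lowest HSPB8 of all libraries. DAD1 and FKBP11 ran together over all libraries, with r = 0.79 and a Spearman coefficient of 0.72, but the deviations from the group means had r = 0.11, so the likeness of these genes lay in the group means. FKBP11 and PDIA6 were at r = 0.088 over all libraries, with a Spearman coefficient of -0.03, and at r = -0.88 within groups. MANF had no pair beyond r = -0.58, its value with HSPB8. Each of these values rests on the same 9 libraries, whose values in TPM share 1 total.

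Of the 442 other tested genes with a mean of at least 5 TPM, those given for their likeness to DAD1 over the 9 libraries are the ribosomal protein gene RPL27 (r = 0.98) and the proteasome subunit PSMB3 (r = 0.93). RPL27 was at 826 ± 48 TPM (agonist), 764 ± 38 TPM (blank) and 697 ± 12 TPM (antagonist) (SD, n = 3 each), the same order as DAD1. FKBP11 was most like PRELID1, a mitochondrial lipid transfer factor (r = 0.93), DECR2 (r = 0.91) and CHMP1A (r = 0.88). SRP72 was most like the membrane transporter ANKH (r = 0.98), the gamma-secretase subunit NCSTN (r = 0.97) and the translation factor EIF4G2 (r = 0.97), and 98 of the 442 genes had r above 0.8 with it, against 11 for DAD1 and 13 for FKBP11. PDIA6 was most like RALB (r = 0.85), TAX1BP3 (r = 0.84) and RAB7A (r = 0.83). MANF was most like CCNL2 (r = 0.80), UBE2G2, a ubiquitin-conjugating enzyme of ER-associated degradation (r = 0.80), and FAM104A (r = 0.79), and its Spearman coefficient with each was 0.53. For HSPB8, with 443 genes compared, the nearest were ACOT7 and GAMT (r = 0.92 each) and QSOX1, the sulfhydryl oxidase described above (r = 0.91).

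**Figure D5:**
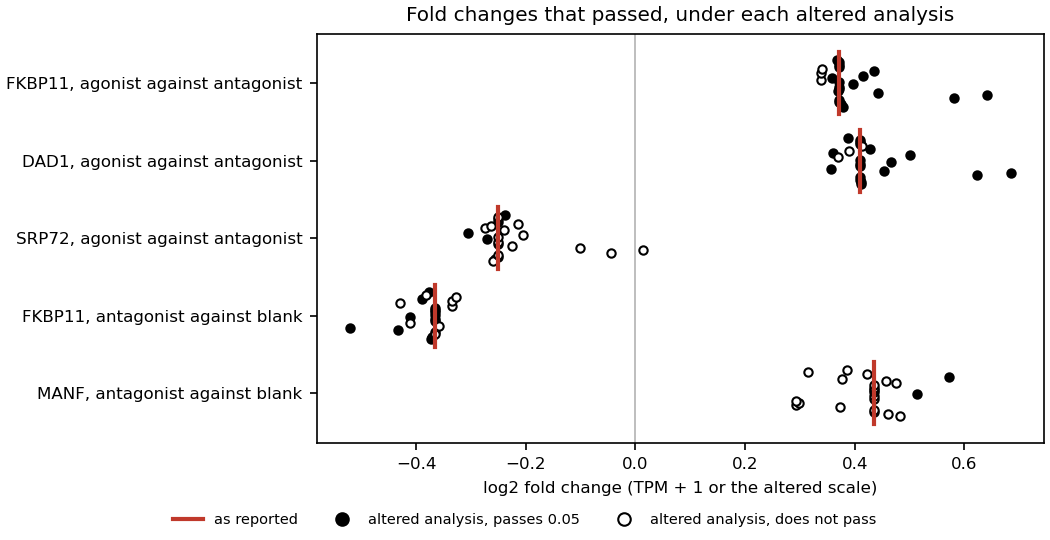
Log2 fold changes of the 5 member results that passed, as reported (red bars) and under 22 altered analyses each, with filled points where the gene still passed an adjusted p of 0.05. Points of FKBP11 and DAD1 stay on their side of 0 between 0.34 and 0.68 for agonist against antagonist, those of SRP72 reach 0.014, and those of MANF lie at 0.29 to 0.57 with 2 filled.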

How the data were processed

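Libraries were prepared from Trizol-extracted RNA with a NEBNext Ultra RNA kit, per the labels' protocols. The authors deposited gene levels in TPM, 1 table of 1371 genes by 9 libraries, and each column was matched to its library by title. Tools listed in the submitters' processing notes, with no role stated, are StringTie 1.2.2, Cuffdiff, Cufflinks 2.2.1, TopHat2 2.1.0 and CASAVA 1.8.2. The sources used here do not give the build, the annotation or the use of strand. TPM keeps no depth, so read numbers and counting error are unknown.

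The scale was log2(TPM + 1), and a filter of 1 TPM in at least 3 libraries left 832 genes. A limma model (version 3.58.1, R 4.3.3) of the 3 groups over all 9 libraries gave every comparison, with a variance trend and two-sided p-values adjusted by Benjamini-Hochberg over the 832 genes. An exact test of 3 against 3 libraries cannot go below p = 0.1 and was not used. Flow cells came from the description labels: H75K3DMXX held agonist 1 and antagonist 2, H77KGDMXX agonist 2, antagonist 1 and 3 and blank 1, and H773TDMXX agonist 3 and blank 2 and 3. Other analyses used a pseudocount of 0.1 or 0.5, 3 scalings, no filter, a filter at a mean of 5 TPM, a flow cell term, a replicate block, the 2 groups alone, library weights, no variance trend and each library left out; a random flow cell block was added after the data were seen.

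The members and lists were chosen with earlier results of these data known. All members were named, with up to 4 called genes of each list, or else the 2 with the highest mean TPM; TXNDC5, QSOX1, GPX8, RPN2, ALG2, SRP9, SPCS3, SRP68, HSPB2 and HSPB3 were named beyond this rule after their values were seen. Genes of like pattern were the 3 with the highest Pearson r and a mean of at least 5 TPM. A gene of like pattern to DAD1 is not reported here. Gene names were used as given, and 1253 of 1371 matched a RefSeq symbol.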

Additional observations from a re-analysis of the deposited data

How the results depend on the processing

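The 2 DAD1 and FKBP11 differences between the analogues kept direction and call in all 13 analyses that left out no single library. The scalings among them moved the all-gene median in the direction of these differences and are a weak check. Members called were 3 for agonist against antagonist, 2 or 3 in the 13 analyses and 0 to 3 without 1 library. For antagonist against blank, 2 were called, 1 with either other pseudocount, a mean of 5 TPM, upper quartile or median of ratios scaling, the replicate block, the 2 groups alone, no variance trend or a random flow cell block, 0 without a filter, with quantile normalization or a flow cell term, 3 with library weights, which added DAD1, and 0 to 2 without 1 library. Over all genes, 213 of 832 were called for agonist against antagonist, and 86 of 443 with a mean of 5 TPM. Calls numbered 101, 108 and 52 with upper quartile, median of ratios and quantile scaling and 132 with a flow cell term. They numbered 369 with library weights and 15 to 295 without 1 library. For antagonist against blank, 92 of 832 were called, and 42 and 61 with pseudocounts of 0.1 and 0.5. Without a filter 14 of 1371 genes passed, and with a mean of 5 TPM 26 of 443. The count was 41 with quantile normalization, 0 with a flow cell term and 41 with it as a random block. It was 27 with the replicate block, 348 with library weights and 2 to 212 without 1 library. For agonist against blank, 0 became 12 with library weights and 0 to 67 without 1 library. The cause of these shifts was not tested.

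Direction turned in the following values, of which only SRP72 between the analogues had passed. Agonist against antagonist, MANF was at 0.14, 0.20 and 0.15 under upper quartile, median of ratios and quantile scaling, 0.026 with a flow cell term, 0.034 within H75K3DMXX and -0.093 to 0.0046 without 1 library; SRP72 at 0.014 under median of ratios scaling; HSPB8 at 0.052 under quantile normalization and 0.29 within H77KGDMXX. Antagonist against blank, SRP72 was at -0.012 under median of ratios scaling, and PDIA6 at 0.062 with a flow cell term, 0.023 with library weights, 0.012 with a random flow cell block, 0.017 within H77KGDMXX and -0.079 to 0.064 without 1 library. Agonist against blank, SRP72 was at 0.028, 0.0015 and 0.013 under the 3 scalings, FKBP11 at -0.042 with a flow cell term, -0.014 with library weights, -0.0093 with a random block, -0.11 within H773TDMXX and -0.027 to 0.048 without 1 library, and HSPB8 at 0.21 within H77KGDMXX. Of 537 recomputed values of other listed genes that passed in neither fit, 51 changed sign.

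Replicate numbers are not stated to pair the libraries, so the numbers were not taken as pairs. Deviations of same-numbered libraries correlated at -0.12 to 0.22 (median 0.069). Between groups, those of libraries with other numbers correlated at -0.25 to 0.19 (median -0.03). These ranges overlap and cannot decide if the libraries were paired. With the replicate block, 166, 27 and 0 genes passed for agonist against antagonist, antagonist against blank and agonist against blank, and SRP72 and MANF lost their calls (limma, adjusted p = 0.0709 and 0.0770). Where leaving out a library left 2 in a group, the spread was taken as that of all groups. With no depth known, values near 0 TPM carry an unknown counting error.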

Other observations

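Subunits of the same complex stood at very different levels in the table. The sources used here do not give the annotation or the use of strand behind these levels, and the cause of the gaps was not tested. SRP68, which pairs with SRP72 in the signal recognition particle, was at 0.466 to 1.203 TPM over the 9 libraries and was removed by the filter, where SRP72 was at 20.2 to 27.2 TPM. In the oligosaccharyltransferase, the group means of RPN2 lay between 1.45 and 1.72 TPM, those of RPN1 between 106 and 128 TPM and those of DAD1 between 244 and 326 TPM. Of the small heat shock proteins, HSPB2 and HSPB3 were listed at 0 in all 9 libraries.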
